A study of Danio rerio with 8 samples.

Results

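The transcripts of collagen hydroxylases and lysyl oxidases were described in 8 RNA sequencing libraries of sorted ventricular cells from adult zebrafish hearts. Members were taken by name: 10 genes were listed, and a row was kept where its symbol, a RefSeq synonym or the symbol without its paralog letter matched. This gave 11 of the 31388 rows, since 2 rows carry the symbol LOXL3. The fish, 3 to 9 months old and untreated, all carried Tg(-6.8wt1a:EGFP), a reporter that places green fluorescent protein (GFP) under sequence from upstream of wt1a. Each of 4 pools of 3 to 5 hearts gave 1 library of cells labelled GFP-positive (wt1a+) and 1 of cells labelled GFP-negative (wt1a-), so that each sort has 4 libraries. By the labels no wild-type fish or second reporter line is among them, though the protocol text also names mCherry-positive cells. Each library is the mean of a pool of hearts.

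Collagen chains are modified in the endoplasmic reticulum before they are secreted. Prolyl 4-hydroxylase, made of an alpha subunit from the p4ha genes and a beta subunit from P4HB, hydroxylates prolines and thereby stabilises the triple helix. Lysyl hydroxylases, encoded by the plod genes, hydroxylate lysines, which serve as sites for sugars and for stable crosslinks. Outside the cell, lysyl oxidases, which carry copper, oxidise lysines of collagen and elastin so that crosslinks form. In the heart these steps are best known from fibroblasts and from scar tissue.

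The values are TPM, transcript abundances set to a common total in each library, which correct for transcript length, so levels can be compared between genes. TPM keeps no read depth, so the depth of each library is unknown and no interval from counts was computed. Differences are given on the log2(scaled TPM + 1) scale, where libraries were scaled to a common centre by a trimmed mean of log ratios, and this scale understates the change of genes at low levels. The scaling divided the libraries of pools 3 and 4 by 1.21 to 1.89 and those of pools 1 and 2 by 0.603 to 0.818. A gene was called where limma gave a Benjamini-Hochberg adjusted p under 0.05 over the 13877 genes that reached 1 TPM in at least 4 libraries. Of the 11 member rows, 9 passed this filter.

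The labels were checked with wt1a (listed as WT1), whose product regulates transcription in the epicardium, the heart's outer layer. It stood at 71.3 and 39.5 TPM in the libraries labelled GFP-positive of pools 3 and 4 and at 1.15 and 2.59 in those of pools 1 and 2. In the libraries labelled GFP-negative it stood at 107 and 44.3 TPM in pools 3 and 4 and at 2.42 and 1.42 in pools 1 and 2. It was thus higher in the library labelled GFP-positive in pool 2 and lower there in the other 3 pools. Below, GFP-positive and GFP-negative name the labelled sorts alone, and members are also described by pool number, pools 3 and 4 against pools 1 and 2.

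These pairs of pools also differed in their cell type markers. Fibroblast markers had sums of 3074 to 6466 TPM across pools 3 and 4, against 161 to 269 TPM in pools 1 and 2, and 7 of 9 tested were called with higher means in pools 3 and 4 and 1 with lower means. Cardiomyocyte markers summed to 1587 to 4208 TPM in pools 3 and 4, against 22261 to 31632 TPM in pools 1 and 2, with 10 of 10 called. Endothelial markers (7 of 8 called), erythrocyte markers (5 of 5) and macrophage markers (3 of 8) were called higher in pools 1 and 2. Their sums were 67.2 to 123, 6.31 to 32.3 and 66.5 to 197 TPM in pools 3 and 4, against 214 to 373, 700.3 to 1781 and 135 to 230 TPM in pools 1 and 2. The epicardial list was divided, with 5 of 8 called higher in pools 3 and 4 and 2 lower. Its sum was 681 to 1387 TPM in pools 3 and 4, against 245 to 391 TPM in pools 1 and 2. Of 7 smooth muscle and pericyte markers, 2 were called higher in pools 3 and 4 and 1 lower, and their sum was 440 to 726 TPM in pools 3 and 4, against 67.9 to 94.2 TPM in pools 1 and 2. Beside these counts, 4.55% of all genes tested were called and highest in pools 3 and 4 and 7.85% in pools 1 and 2. A row each of TNNT2, CNN1 and MFAP4, genes that have further rows, was listed at 0 in every library of pools 3 and 4, and another MFAP4 row in every library of pools 1 and 2. The part of these markers in the results below was not tested, and in such bulk samples fewer cells of a type and less RNA per cell cannot be told apart.

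Of the 9 tested members, 4 were called among the pools, with the highest means in pools 3 and 4: plod2, loxl2a, loxl2b (listed as LOXL2) and p4ha1b (listed as P4HA1). Among all genes tested 12.9% were called by this F test, while 4.55% were called and highest in pools 3 and 4 and 7.85% were called and highest in pools 1 and 2. The median log2 difference, pools 3 and 4 minus pools 1 and 2, was 1.15 over the 9 members and -0.03 over all genes tested. The difference was positive for 9 of 9 members and for 6762 of 13877 genes. Where a limma adjusted p stands beside such a difference, it is that of the F test of any difference among the 4 pools. The difference between the pairs of pools was not itself tested. The spread behind these p-values comes from the 2 libraries of each pool, which share their hearts, so it does not measure variation between sets of hearts.

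**Figure D1:**
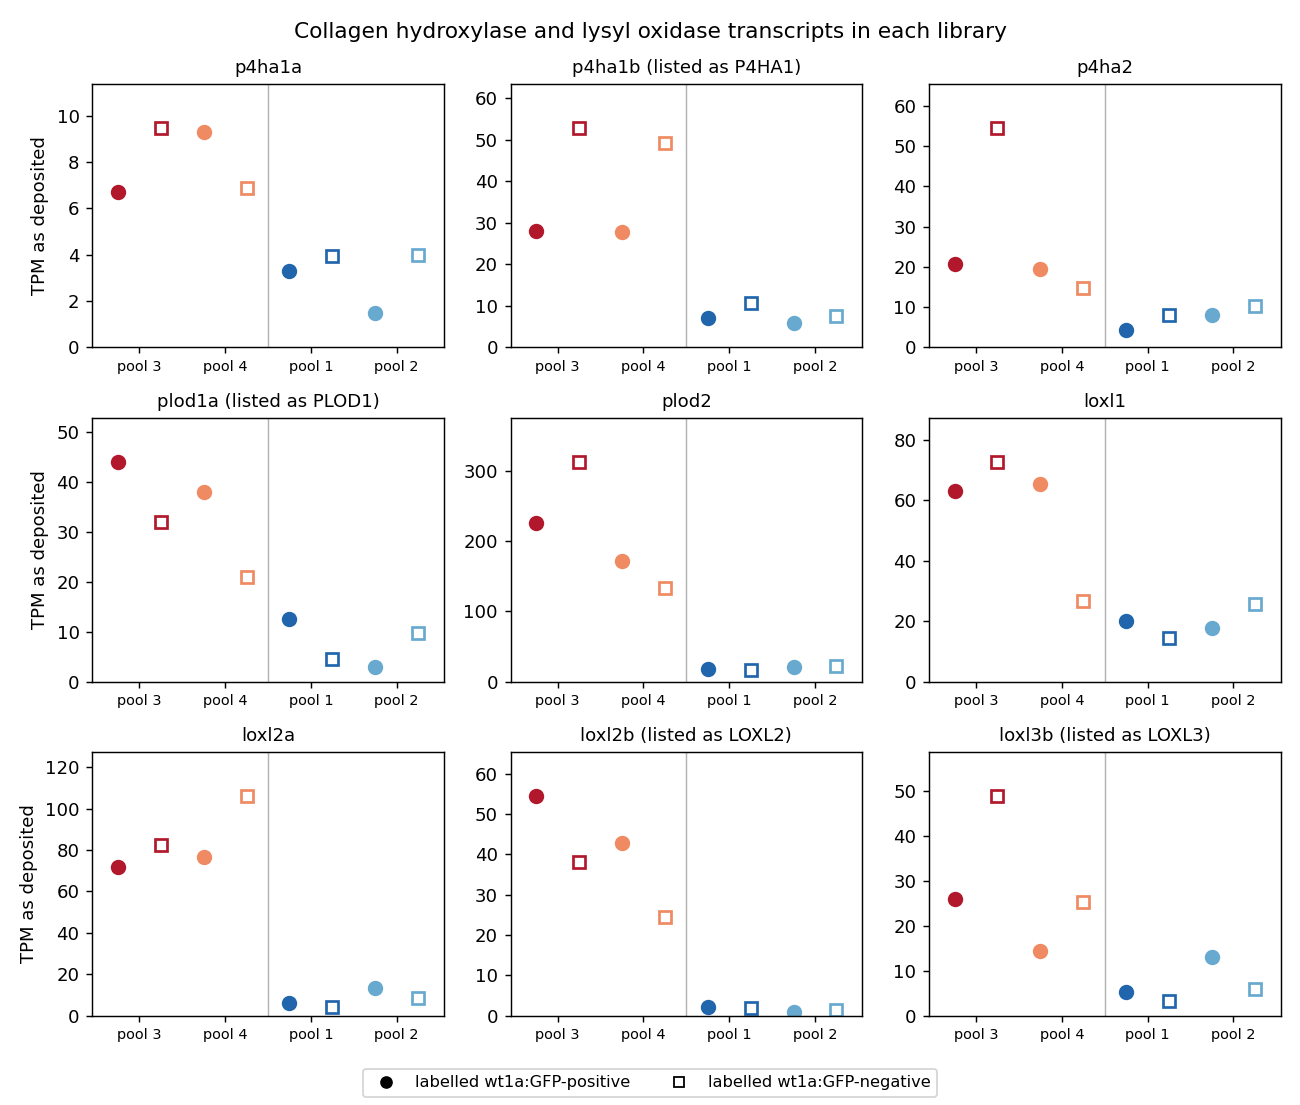
TPM as deposited of the 9 tested members (vertical axis, linear from 0) in each of the 8 libraries, with pools 3 and 4 left of the grey line and pools 1 and 2 right of it; filled circles are libraries labelled GFP-positive and open squares libraries labelled GFP-negative. The plod2 points cover 133 to 313 TPM in pools 3 and 4, against 16.5 to 21.7 TPM in pools 1 and 2, while the lowest loxl1 point of pools 3 and 4, 26.7 TPM, is close to the highest of pools 1 and 2, 25.5 TPM.

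Among the lysyl hydroxylases, plod2 (ENSDARG00000011821) encodes the enzyme that, in mammals, hydroxylates lysines of the collagen telopeptides, the sites of crosslinks. It stood at 226 and 313 TPM in the GFP-positive and GFP-negative libraries of pool 3 and at 171 and 133 TPM in those of pool 4. In pool 1 it stood at 18.2 and 16.5 TPM and in pool 2 at 21.2 and 21.7 TPM, in the same order of sorts. Every library of pools 3 and 4 lay above every library of pools 1 and 2, which themselves spanned a narrow range. The log2 difference between the pairs of pools was 2.26, and ran from 2.09 to 2.42 over the single pairs of pools (limma adjusted p = 0.00176).

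plod1a (listed as PLOD1, ENSDARG00000059746) encodes a lysyl hydroxylase that, in mammals, acts on lysines within the helix. Its level was 44.0 and 31.9 TPM in the GFP-positive and GFP-negative libraries of pool 3 and 37.9 and 20.9 TPM in those of pool 4. It was 12.5 and 4.56 TPM in pool 1 and 2.83 and 9.69 TPM in pool 2. As deposited, the pairs of pools did not overlap, but after scaling they did, because the GFP-positive library of pool 1 (20.7 scaled TPM) exceeded the GFP-negative libraries of pools 3 and 4 (16.9 and 17.3). The log2 difference was 1.18, and plod1a was not called among pools (limma adjusted p = 0.292).

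The genes of the lysyl oxidase family were uneven. loxl2a (ENSDARG00000044010) and the row listed as LOXL2 (ENSDARG00000044074), taken as loxl2b because it alone remained for that name, encode lysyl oxidases that, in mammals, act on collagen IV of basement membranes. loxl2a stood at 72.0 and 82.2 TPM in the GFP-positive and GFP-negative libraries of pool 3 and at 76.4 and 106 TPM in those of pool 4. It stood at 6.22 and 4.26 TPM in pool 1 and at 13.1 and 8.61 TPM in pool 2. The libraries of pools 3 and 4 all lay above the others, and pool 2 lay above pool 1 in both sorts. The log2 difference between the pairs was 2.30, from 1.56 to 3.04 over the single pairs (limma adjusted p = 0.00490).

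loxl2b stood at 54.5 and 38.0 TPM in the GFP-positive and GFP-negative libraries of pool 3 and at 42.9 and 24.4 TPM in those of pool 4. It stood at 2.26 and 1.92 TPM in pool 1 and at 0.91 and 1.29 TPM in pool 2. This was the largest difference among the tested members, 3.08 on the log2 scale with a range of 2.65 to 3.51 over the single pairs (limma adjusted p = 0.00269). In TPM as deposited its mean was 40.0 ± 12.5 in pools 3 and 4 and 1.60 ± 0.608 in pools 1 and 2 (SD, n = 4 libraries from 2 pools each), a ratio of 25.1.

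loxl1 (ENSDARG00000054451) encodes a lysyl oxidase known in mammals for its part in elastic fibres. It stood at 63.2 and 72.8 TPM in the GFP-positive and GFP-negative libraries of pool 3 and at 65.4 and 26.7 TPM in those of pool 4. It stood at 20.1 and 14.3 TPM in pool 1 and at 17.6 and 25.5 TPM in pool 2. As deposited, 3 libraries were high and the GFP-negative library of pool 4 lay near the libraries of pools 1 and 2. After scaling the pairs of pools overlapped, at 22.1 to 54.2 scaled TPM in pools 3 and 4, against 21.6 to 33.3 in pools 1 and 2. The log2 difference was 0.40, and loxl1 was not called among pools (limma adjusted p = 0.732). The difference was 0.086 without the GFP-positive library of pool 4 and 0.72 without the GFP-negative library of that pool. These were the lowest and highest values when 1 pool or library was left out.

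loxl3b was matched by both rows of LOXL3, and its RefSeq entry gives LOXL3 as a synonym; which row is its paralog loxl3a cannot be told from the symbols. The first row (ENSDARG00000039563) stood at 26.0 and 48.9 TPM in the GFP-positive and GFP-negative libraries of pool 3 and at 14.4 and 25.3 TPM in those of pool 4. It stood at 5.30 and 3.31 TPM in pool 1 and at 13.0 and 5.82 TPM in pool 2. As deposited, the GFP-positive libraries of pools 4 and 2 thus lay next to each other. After scaling, that of pool 2 (18.9 scaled TPM) exceeded those of pools 3 and 4 (16.0 and 11.9). The row was not called among pools (limma adjusted p = 0.324). Its log2 difference was 0.94 and ran from 0.59 without pool 1 to 1.32 without pool 2. The other LOXL3 row (ENSDARG00000076306) was listed at 0 in 6 libraries and at 0.89 and 0.07 TPM in the GFP-positive libraries of pools 4 and 2.

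loxa, matched by the row listed as LOX (ENSDARG00000003259), stands for the founding member of the family, which crosslinks fibrillar collagen and elastin. RefSeq lists a separate gene lox beside loxa, so the assignment of this row is uncertain. It had 1.24 and 0 TPM in the GFP-positive and GFP-negative libraries of pool 3, 1.17 and 0.33 TPM in pool 4, 0.58 and 0.85 TPM in pool 1 and 0.15 and 0 TPM in pool 2. It reached 1 TPM in 2 libraries, both labelled GFP-positive, and was not tested.

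Among the prolyl 4-hydroxylase alpha subunits, p4ha1b (ENSDARG00000071082) stood at 28.0 and 53.0 TPM in the GFP-positive and GFP-negative libraries of pool 3 and at 27.8 and 49.3 TPM in those of pool 4. It stood at 7.07 and 10.7 TPM in pool 1 and at 5.89 and 7.63 TPM in pool 2. The pairs of pools did not overlap, and within each pool the GFP-positive library was the lower one. The log2 difference between the pairs was 1.15 (limma adjusted p = 0.0447). This call was lost without any 1 of the 4 pools and without any 1 of the 8 libraries, at limma adjusted p from 0.0569 to 0.180, while the difference stayed between 0.88 and 1.47.

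p4ha2 (ENSDARG00000010085), a second alpha subunit, stood at 20.7 and 54.5 TPM in the GFP-positive and GFP-negative libraries of pool 3 and at 19.6 and 14.8 TPM in those of pool 4. It stood at 4.28 and 8.15 TPM in pool 1 and at 8.07 and 10.3 TPM in pool 2. The GFP-negative library of pool 3 stood apart from the rest, and p4ha2 was not called among pools (limma adjusted p = 0.468). Its log2 difference was 0.58. It ran from 0.29, without that GFP-negative library, to 0.86, without the GFP-positive library of pool 3. p4ha1a (ENSDARG00000033537), the paralog of p4ha1b, ranged from 6.69 to 9.49 TPM in pools 3 and 4 and from 1.48 to 4.01 TPM in pools 1 and 2. Its log2 difference was 0.28, it was not called among pools (limma adjusted p = 0.627), and the scaled values of the pairs overlapped.

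**Figure D2:**
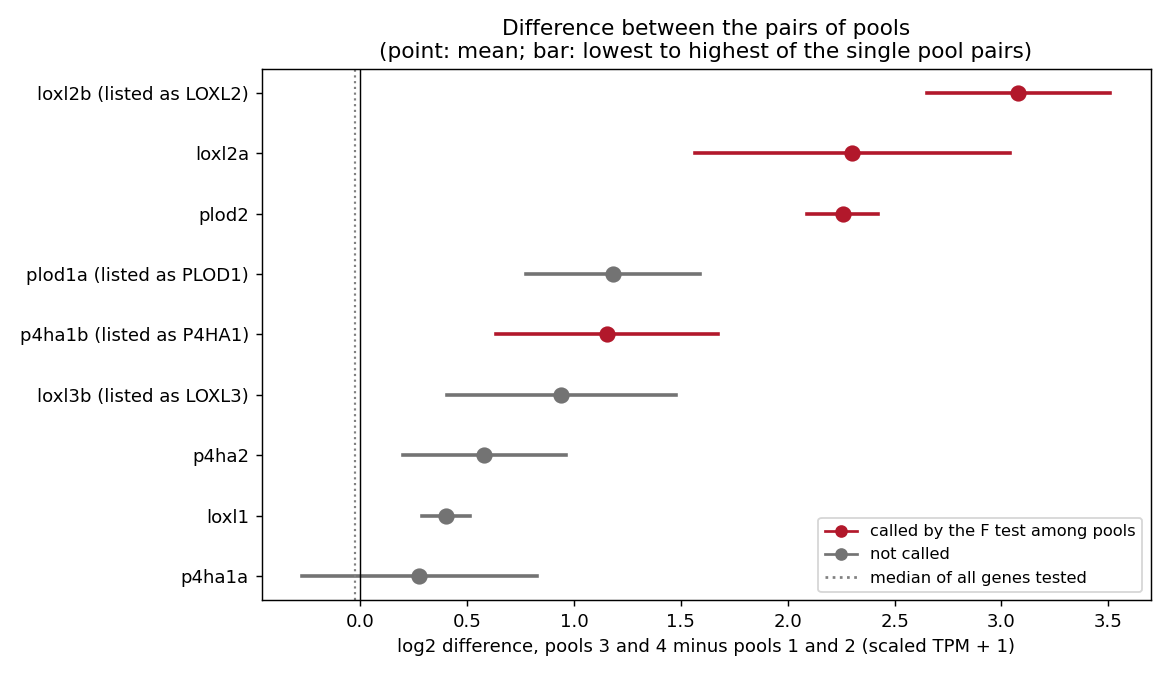
Log2 difference in scaled TPM + 1, pools 3 and 4 minus pools 1 and 2 (horizontal axis), for the 9 tested members; points are means over pools, bars run from the lowest to the highest single pair of pools, red marks members called by the F test among pools and the dotted line is the median of all genes tested. The loxl2b, loxl2a and plod2 points lie at 3.08, 2.30 and 2.26, and the bar of p4ha1a runs from -0.27 to 0.83 and crosses 0.

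How many members separated the pairs of pools depended on the scaling. After scaling, 4 of the 9 tested members were higher in every library of pools 3 and 4 than in every library of pools 1 and 2, where 12.1% of all genes tested were. In TPM as deposited 9 of 9 were, but so were 33.4% of all genes, because the median of all genes then lay 0.80 higher in pools 3 and 4 on the log2 scale. On the deposited scale the F test called 8 of the 9 members, all but p4ha1a, and over all genes it called 3131 highest in pools 3 and 4 and 649 highest in pools 1 and 2, against 631 and 1090 after scaling. plod2, loxl2a and loxl2b were called under each of the 9 alternative settings of scaling, filter, pseudocount and prior variance and without any 1 pool or library.

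In pools 3 and 4 plod2 was the most abundant member, at 211 ± 78.0 TPM (SD, n = 4 libraries), above loxl2a at 84.2 ± 15.2 TPM in 4 of 4 libraries and with no overlap. loxl1 (57.0 ± 20.6 TPM), loxl2b (40.0 ± 12.5), p4ha1b (39.5 ± 13.5), plod1a (33.7 ± 9.85), loxl3b (28.6 ± 14.5) and p4ha2 (27.4 ± 18.3) followed, and each neighbour in this order overlapped the next. p4ha1a came last among the tested members at 8.10 ± 1.52 TPM, below p4ha2 in every library. In pools 1 and 2 plod2 (19.4 ± 2.49 TPM) and loxl1 (19.4 ± 4.74) shared the top, each the higher one in 2 of 4 libraries. loxl2a, p4ha1b, p4ha2, plod1a and loxl3b lay between 8.06 and 6.87 TPM on average and overlapped, with p4ha1a at 3.18 ± 1.18 and loxl2b last at 1.60 ± 0.608 TPM. loxl2b thus held place 4 of 9 in pools 3 and 4 and place 9 in pools 1 and 2.

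Within a library, shares and ratios do not depend on how libraries are scaled. Of the summed TPM of the 6 lysyl oxidase rows, loxl1 held 14.6% to 32.5% in pools 3 and 4, against 39.2% to 61.9% in pools 1 and 2. loxl2a held 33.2% to 58.0% in pools 3 and 4, against 17.3% to 29.2% in pools 1 and 2, and loxl2b 13.3% to 25.1%, against 2.03% to 7.81%. None of these 3 shares overlapped between the pairs of pools. They are parts of the same sum, so the lower loxl1 share is not separate from the higher shares of loxl2a and loxl2b. The TPM of loxl1 itself, as deposited, was higher in pools 3 and 4, while after scaling the pairs of pools overlapped. The share of loxl3b overlapped, at 7.58% to 20.2% in pools 3 and 4, against 13.5% to 29.2% in pools 1 and 2, with both LOXL3 rows counted. Among the alpha subunits the shares of p4ha1a, p4ha1b and p4ha2 all overlapped, that of p4ha1b being 45.3% to 69.4% in pools 3 and 4, against 34.7% to 48.3% in pools 1 and 2. The share of plod2 in the sum of plod1a and plod2 was 81.9% to 90.7% in pools 3 and 4, against 59.4% to 88.2% in pools 1 and 2.

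The enzymes were set against collagen I, a main substrate, as TPM per 1000 TPM of its 3 chains col1a1a, COL1A1 and COL1A2. The chains summed to 1284 to 3327 TPM in pools 3 and 4 and to 74.2 to 146 TPM in pools 1 and 2. The lysyl oxidase rows came to 72.7 to 142 per 1000 in pools 3 and 4, against 236 to 389 in pools 1 and 2. The lysyl hydroxylases came to 104 to 121, against 208 to 289, and the alpha subunits to 24.8 to 55.3, against 100.2 to 307. All 3 families thus had lower ratios to collagen I in every library of pools 3 and 4 although their TPM as deposited was higher there. Of the 9 tested members 7 had this arrangement singly, and loxl2a (24.7 to 82.7 in pools 3 and 4, against 42.6 to 114) and loxl2b (11.4 to 24.5, against 7.88 to 25.9) overlapped. Collagen I was itself higher in every library of pools 3 and 4, so a gene that differed less has a lower ratio there. The share of all genes with this arrangement was not computed, so the 7 of 9 cannot be set against a background. These ratios were chosen with earlier results known and were not tested.

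**Figure D3:**
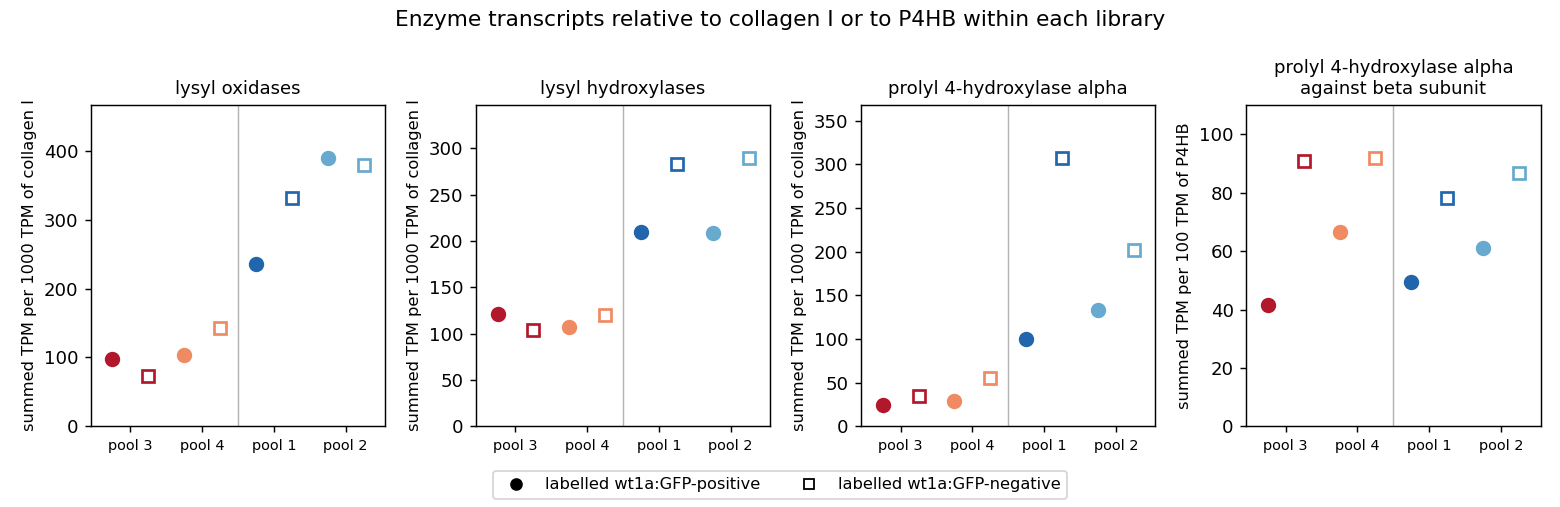
Summed TPM of each enzyme family per 1000 TPM of the collagen I chains (3 panels) and of the alpha subunits per 100 TPM of P4HB (right panel), linear axes from 0, in each library; filled circles are labelled GFP-positive and open squares GFP-negative. The ratios to collagen I are lower in all 4 libraries of pools 3 and 4 (lysyl hydroxylases 104 to 121) than in those of pools 1 and 2 (208 to 289), and in the right panel each circle (41.5 to 66.5) lies below each square (78.1 to 91.8).

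Between the labelled sorts no member was called. limma called 0 of the 9 tested members and 0 of all 13877 genes (0.0%), and at an unadjusted p under 0.05 there were 0 members and 770 genes (5.55%). The log2 difference, GFP-positive minus GFP-negative, was positive for 6 members and negative for 3, with a median of 0.15, beside 7076 and 6801 of all genes and a median of 0.01. The negative ones were the alpha subunits p4ha1a, p4ha1b and p4ha2. The ranges of the labelled sorts overlapped for 9 of 9 members and were apart for 1.81% of all genes, and 0 members were higher in the GFP-positive library in every pool, where 7.15% of all genes were.

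For p4ha1b the difference was -0.51, with SE 0.23 and a 95% interval from -1.05 to 0.04 (limma adjusted p = 0.853). The GFP-positive library was the lower one in 4 of 4 pools. A lower value in every pool was seen in 7.03% of all genes tested. Within pools 3 and 4 the difference was -0.74, and within pools 1 and 2 it was -0.28. p4ha2 differed by -0.39 (SE 0.31) and p4ha1a by -0.22 (SE 0.35), both at a lower level in 3 of 4 pools after scaling and with intervals that included 0.

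plod1a differed by 0.40 (SE 0.44), with pool 1 at 1.45 and pool 2 at -1.33, so that its interval of -0.62 to 1.42 was the widest of the 9. loxl2b differed by 0.41 (SE 0.29), with 0.75 within pools 3 and 4 and 0.06 within pools 1 and 2. loxl1 differed by 0.40 (SE 0.28), and the GFP-negative library of pool 4 gave that pool a difference of 1.26. plod2 differed by 0.15 (SE 0.19), an interval of -0.29 to 0.58. loxl2a differed by 0.24 (SE 0.27), with -0.22 within pools 3 and 4 and 0.70 within pools 1 and 2. loxl3b differed by 0.14 (SE 0.39), with -0.71 within pools 3 and 4 and 1.00 within pools 1 and 2, and opposite signs of this kind were seen in 11.8% of all genes. The test of that change between pairs of pools was under an unadjusted p of 0.05 for 5.67% of all genes, and limma called 0 after adjustment (0.0%). The limma adjusted p lay between 0.853 and 0.970 for all 9.

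**Figure D4:**
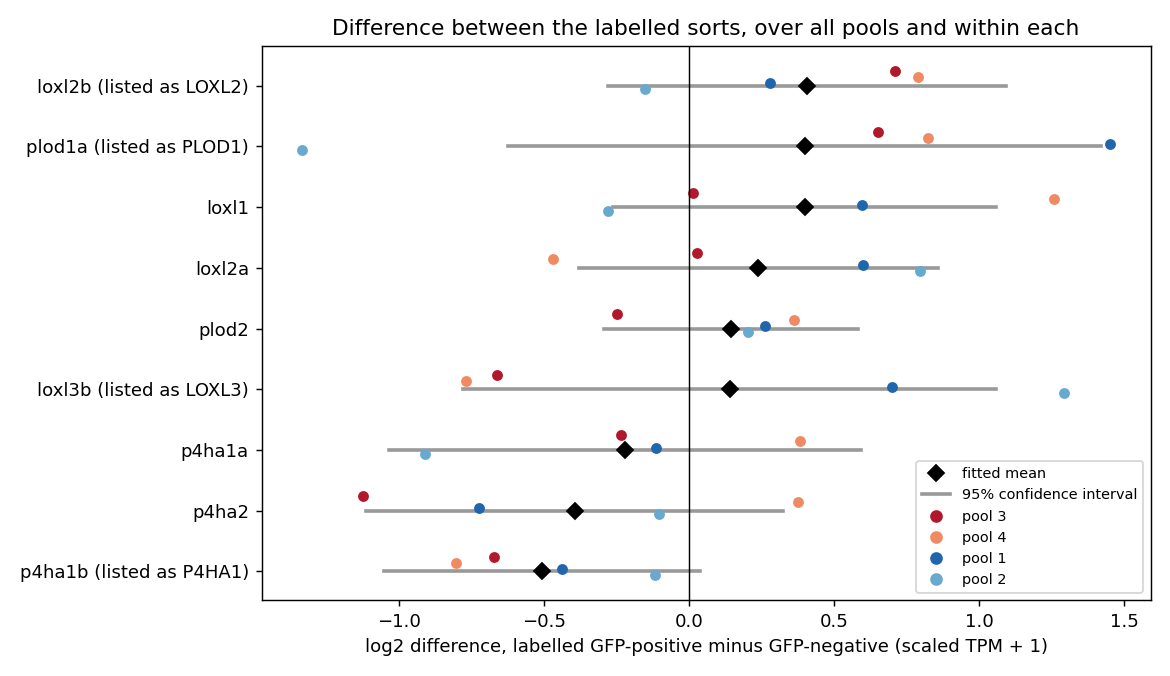
Log2 difference in scaled TPM + 1, GFP-positive minus GFP-negative by label (horizontal axis), for the 9 tested members; diamonds are fitted means over 4 pools, grey bars 95% confidence intervals and coloured points the single pools. Every bar crosses 0, the 4 points of p4ha1b all lie below 0, and those of loxl3b lie below 0 for pools 3 and 4 and above 0 for pools 1 and 2.

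The alpha subunits were also set against P4HB (ENSDARG00000105116), which encodes protein disulfide isomerase and is the beta subunit of the same enzyme. The summed alpha subunits came to 41.5, 66.5, 49.3 and 61.0 TPM per 100 TPM of P4HB in the GFP-positive libraries of pools 3, 4, 1 and 2. They came to 90.9, 91.8, 78.1 and 86.8 in the GFP-negative libraries of the same pools. The labelled sorts did not overlap, at 54.6 ± 11.3 against 86.9 ± 6.26 (SD, n = 4), whereas the pairs of pools did (41.5 to 91.8 in pools 3 and 4, against 49.3 to 86.8). This was the 1 of 28 ratios and shares computed in which the sorts did not overlap. It was picked out after its values were seen and was not tested. P4HB itself had 133 and 129 TPM in the GFP-positive and GFP-negative libraries of pool 3, 85.2 and 77.4 in pool 4, 29.7 and 29.2 in pool 1 and 25.3 in both of pool 2.

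Other genes were taken from a list of hydroxylases and their partners. It also holds rows of P4HTM, COLGALT1, colgalt2a and colgalt2b, so its counts are not of collagen hydroxylases alone. Of its 11 tested rows 1 was called among the pools, where 12.9% of all genes tested were. This was PPIB, which encodes the prolyl isomerase of the prolyl 3-hydroxylase complex. The median log2 difference was 0.82, and it was positive for 10 of the 11 rows. After scaling, 6 rows were higher in every library of pools 3 and 4, where 12.1% of all genes tested were. PPIB ranged over 110 to 200.2 TPM in pools 3 and 4, against 20.0 to 26.5 TPM in pools 1 and 2 (difference 1.49; limma adjusted p = 0.00720). P4HB had a difference of 0.82 and was not called among pools (limma adjusted p = 0.0538). Of 3 further lysyl oxidase rows 1 was tested, LOXL4, with 3.33 to 7.56 TPM in pools 3 and 4, against 0.02 to 0.85 TPM in pools 1 and 2 (difference 1.70; limma adjusted p = 0.113). LOXL4 passed the filter only through the libraries of pools 3 and 4. The direction of its difference is therefore not separate from the filter.

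Over 11 collagen chaperone and export genes the median difference was 1.49. Of these, 4 were called, all with the highest means in pools 3 and 4, beside 4.55% of all genes tested. FKBP7, a prolyl isomerase of the endoplasmic reticulum, had 80.4 to 153 TPM there, against 3.07 to 11.1 TPM in pools 1 and 2 (limma adjusted p = 0.00257). The others were the isomerase gene FKBP9 (difference 1.89), CREB3L2, a transcription factor of secretory genes (1.94), and SEC24D, a coat protein of vesicles that leave the endoplasmic reticulum (1.67). Over 6 tested procollagen processing rows the difference was positive for 4 and ran from -1.98 to 2.67, with a median of 0.69. After scaling, 3 rows were higher in every library of pools 3 and 4 and 1 was lower. Among all genes tested these shares were 12.1% and 14.5%. Of the 6 rows 2 were called, both highest in pools 3 and 4, beside 4.55% of all genes tested. They were a row of BMP1 (ENSDARG00000028071), a protease that removes the C-terminal propeptide of procollagen (1.95; limma adjusted p = 0.0162), and pcolcea, encoding an enhancer of that protease (2.67; limma adjusted p = 0.0185).

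Fibrillar collagens had the highest median difference of these lists, 2.92. Of 9 tested rows 8 were called, each highest in pools 3 and 4, beside 4.55% of all genes tested. COL5A1 had 228 to 474 TPM there, against 13.1 to 26.8 TPM in pools 1 and 2, a difference of 2.92 (limma adjusted p = 0.00112). The differences of col5a3a, COL1A2 and COL1A1 were 3.78, 3.06 and 3.55, so that loxl2b, at 3.08, was the tested member nearest to them. Of 7 rows of elastic fibre substrates and partners 1 was called in each direction. Among all genes tested 4.55% were called and highest in pools 3 and 4 and 7.85% in pools 1 and 2. The median over the list was -0.54. LTBP1, which encodes a binding protein of latent TGF-beta in microfibrils, had 44.8 to 118 TPM in pools 3 and 4, against 0.96 to 4.35 TPM in pools 1 and 2 (limma adjusted p = 0.00249). A row of MFAP4 (ENSDARG00000090783), also on the macrophage list, had 0.46 to 1.05 TPM, against 4.20 to 7.34 TPM (limma adjusted p = 0.0103).

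Prolyl and lysyl hydroxylases need ascorbate and iron, and lysyl oxidases copper. Of 6 tested transporter and copper chaperone genes limma called 0 among the pools, where 12.9% of all genes tested were called. In this list 1 was at an unadjusted p under 0.05 in the F test, and the share of all genes at such a p was not computed. The median difference over the list was 0.14. The most abundant, SLC39A13, a zinc transporter of the secretory pathway, ranged over 16.0 to 21.9 TPM in pools 3 and 4, against 2.32 to 5.47 TPM in pools 1 and 2 (limma adjusted p = 0.157). Several members are known in mammals to be induced by hypoxia. Of 25 tested rows of hypoxia pathway genes 8 were called, 3 highest in pools 3 and 4 and 5 highest in pools 1 and 2, with a median of -0.68. Among all genes tested these shares were 4.55% and 7.85%. A row of EPAS1 (ENSDARG00000057671), which encodes a hypoxia-inducible factor, had 3.01 to 7.57 TPM in pools 3 and 4, against 59.0 to 92.0 TPM in pools 1 and 2 (limma adjusted p = 0.000982). BNIP3L (ENSDARG00000028067), a mitophagy receptor, and LDHA, a lactate dehydrogenase, were also lower in pools 3 and 4, by differences of -2.32 and -1.86. The growth factor gene VEGFA had rows of either direction: the row ENSDARG00000103542 had a difference of 2.52 (limma adjusted p = 0.00129), and the row ENSDARG00000034700, named after its values were seen, one of -3.48 (limma adjusted p = 0.0134). Between the labelled sorts none of the genes in these 8 lists was called. The fibrillar collagens, named here after their values were seen, were higher in GFP-positive on average for 9 of 9 tested rows (median 0.43), beside 7076 of all 13877 genes. So were 7 of 7 smooth muscle and pericyte markers (median 0.43) and 8 of 9 fibroblast markers (0.37). In the other marker lists it ran from 1 of 8 (macrophage) to 5 of 8 (epicardium). Of the fibrillar collagens, 4 had an unadjusted limma p under 0.05, beside 5.55% of all genes. Each other list, of 1 to 25 tested rows, had 0 to 2 such rows.

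For each of the 8 tested members at a mean of at least 10 TPM, the genes with the most similar profile were found by the root mean square difference of centred log2 values over the 8 libraries, among 4396 named genes. plod2 was nearest to lama4, a laminin chain of basement membranes (0.13), and to PHLDA2 (0.15). loxl2a was nearest to the transcription factor gene CREB5 (0.24) and to wt1b, the paralog of wt1a (0.25), which had 48.3 to 60.0 TPM in pools 3 and 4, against 3.44 to 6.78 TPM in pools 1 and 2. loxl2b was nearest to ANGPTL1, a secreted angiopoietin-like protein (0.20), and to ITLN1, a lectin (0.20). p4ha1b was nearest to LIPA, the lysosomal acid lipase (0.10), and ALDH9A1, an aldehyde dehydrogenase (0.16), and p4ha2 to KIDINS220 (0.14) and STAM2 (0.21). For loxl1 these were LRRC58 (0.16) and pbrm1l (0.18), for loxl3b MTAP (0.24) and GOPC (0.30), and for plod1a si:dkey-238c7.16 (0.25) and FOXP4 (0.32). Among the members themselves p4ha1a and loxl1 were the closest pair (0.47), and plod2 with loxl2a (0.52) came closer than loxl2a with its paralog loxl2b (0.84). This measure is also small where 2 genes both vary little. The differences of p4ha1a and loxl1 between the pairs of pools were 0.28 and 0.40. No background of such distances was computed, so a small value does not show that genes vary together.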

How the data were processed

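RNA from sorted ventricular cells was measured in 8 libraries. Per the labels' protocols, libraries came from 0.2 to 0.6 ng of RNA with a single-cell kit and gave single-end 60-base reads; the same text names another kit and mCherry-positive cells. CASAVA 1.8.2, cutadapt, RSEM 1.2.25 and build Zv9 are named in the submitters' processing notes; the aligner and annotation release are not given in the sources used here. What the authors deposited is TPM, 1 column per library, summing to 1000000 within rounding, so depth is unknown. Amplification from so little RNA can add spread, and RSEM divides reads among paralogs, so close pairs such as loxl2a and loxl2b are uncertain to that extent.

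Symbols came from a table of gene names, and synonyms from RefSeq (GRCz12tu, used for names alone). For scaling, log ratios were averaged without weights after trimming (30% of ratios and 5% of abundances trimmed at each end). limma 3.58.1 in R 4.3.3 was fitted to log2(scaled TPM + 1) over all genes, with pool and labelled sort as terms. The labelled sort was tested with pool as block, and pool by an F test. The series text states that replicates are paired. Deviations from the sort means correlated at 0.492, 0.537, 0.446 and 0.403 within pools 1 to 4, and similarly between pools 1 and 2 and between pools 3 and 4. No 2 libraries correlated above 0.934, and none was treated as a repeat of another. Where nothing says otherwise, the spread between libraries may be technical.

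Members and lists were chosen with earlier results of these data known. Of 167 list entries 150 were matched. Genes named from lists were up to 4 called ones with the smallest p among pools, and 1 uncalled one of the highest mean where fewer than 2 were called. The test of the labelled sort and the F test among pools were run at the main setting on simulated data with known changes. The other fits were not checked in this way. The simulated data held no differences among pools other than the planted ones, so they did not copy the broad pool differences seen here. Python 3.11.15 with pandas 2.3.3 and matplotlib 3.10.9 served for tables and figures.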

Additional observations from a re-analysis of the deposited data

Results flagged for a closer look

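Each member was screened, in TPM as deposited, for a library far from the others of its labelled sort or pair of pools. There were 43 groups of 4 libraries. Chance alone marks about 1 in 20 groups of 4 values drawn from 1 normal distribution. This rate need not hold here, since groups by sort mix pools of unlike levels. A group with a single value above 0 is always marked. p4ha2 had 54.5 TPM in the GFP-negative library of pool 3. The other GFP-negative libraries had 8.15 to 14.8 TPM and the other libraries of pools 3 and 4 had 14.8 to 20.7 TPM. As deposited it thus stood out in both groupings. After scaling it had 28.9 scaled TPM there, against 12.3 to 12.6 and 12.3 to 16.2 in the same groups. The scaled values were not screened. Without the GFP-negative library of pool 3 the p4ha2 log2 difference between the pairs of pools was 0.29, against 0.58 with all libraries. With all libraries p4ha2 was not called among pools (limma adjusted p = 0.468). The second LOXL3 row (ENSDARG00000076306) had 0.89 TPM in the GFP-positive library of pool 4, against 0 to 0.07 TPM in the other GFP-positive libraries, and 0.07 TPM in that of pool 2, where the other libraries of pools 1 and 2 were listed at 0.

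The first LOXL3 row (ENSDARG00000039563) differed in direction between the pairs of pools. The log2 difference, GFP-positive minus GFP-negative, was -0.66 and -0.77 in pools 3 and 4 and 0.70 and 1.29 in pools 1 and 2. The difference of these differences was -1.71 (SE 0.51; limma adjusted p = 0.873, unadjusted p = 0.0138), which did not pass. One sign in pools 1 and 2 and the other in pools 3 and 4 was seen in 11.8% of all genes tested.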

How the results depend on the processing

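Between the labelled sorts limma called 0 genes and 0 members under each of the 10 alternative settings of scaling, filter, pseudocount, prior variance and block, and 0 to 2 genes without 1 pool (2 without pool 2, 1 without pool 3) with 0 members. Without the replicate block the count was 0, and 327 genes had an unadjusted p under 0.05. Leaving out the block changed no call of a member between the labelled sorts. Among pools 1787 genes were called, against 4007 with the TPM as deposited, 884 with no filter and 926 to 1429 without 1 pool or library, the lowest counts being without libraries of pools 1 and 2. The members called numbered 8 with the TPM as deposited, where p4ha2, plod1a, loxl1 and loxl3b were added, and 3 without any 1 pool or library. p4ha1b was also not called with no filter (limma adjusted p = 0.0833), with a pseudocount of 0.1 (0.0544) and with a prior variance without a trend (0.106); over the 9 alternatives its adjusted p ran from 0.00396 to 0.106. Members higher in every library of pools 3 and 4 numbered 9 with the TPM as deposited and 4 to 6 without 1 pool or library. Over all 13877 genes tested, such genes numbered 4635 and 1890 to 2703 in these settings, against 1674 in the main setting. With a pool or library left out, fewer values have to be apart. The p4ha1a difference between pairs of pools ran from -0.038 to 0.62 when 1 pool or library was left out, turning without pool 2. Its difference between sorts ran from -0.43 to 0.008 and was 0.074 within pools 3 and 4. That of loxl3b ran from -0.25 to 0.42, turned without pools 1 and 2 in turn, and was -0.019 with the TPM as deposited and -0.71 within pools 3 and 4; that of loxl2a was -0.22 there. The cause of these changes was not tested. Other directions of single members held. Depth is unknown, and the rows near 0 TPM, LOX and the second LOXL3 row, were not tested.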
